A study of Mus musculus with 45 samples.

Results

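The mRNAs of the ribosomal P-stalk, Rplp0, Rplp1 and Rplp2, were followed across genotype, cell type and cell fraction in the fetal mouse liver. They are 3 of the 13449 genes in the deposited table. They were chosen by their symbols, because Rplp1 and Rplp2 had lost polysome loading with VavCre Rps19flox/+ in these libraries. That choice used the polysome and cytoplasm libraries of the Rps19 line, so values from that line are given as a description with no test. Tests were made in the libraries of the Rpl5 line and between its cell types. The limma fits also took the spread of the Rps19 libraries, so their SEs and p-values are not independent of the choice. Fits of the Rpl5 line alone are among the alternatives.

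Fetal livers were collected at E15.5 from VavCre females mated with males homozygous for a floxed allele of Rpl5 or Rps19. The Vav promoter drives Cre in blood cells. Every group carried 1 floxed allele, and within a line the groups differed by Cre. The 4 genotypes were Rpl5flox/+, VavCre Rpl5flox/+, Rps19flox/+ and VavCre Rps19flox/+, and the 2 floxed genotypes without Cre served as the controls of their lines. All livers were treated with emetine (25 µg/mL for 15 min), which stalls ribosomes on mRNA. Magnetic beads first took the Kit+ cells (blood stem and progenitor cells) and then, from what was left, the Ter119+ cells (erythroid cells on their way to red cells). Cells were pooled by genotype, lysed and spun through a gradient of 10 to 50% sucrose, and poly(A) RNA of the cytoplasm fraction and of the polysome fraction was sequenced. The 45 libraries came from 24 pools and formed 16 groups, of which 14 had 3 libraries. Rpl5flox/+ Ter119+ polysome had 2 libraries, and VavCre Rpl5flox/+ Kit+ polysome had 1. How many fetuses went into a pool is not given by the labels.

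The P-stalk is the flexible arm of the large ribosomal subunit that recruits and activates the translational GTPases, among them the elongation factors eEF1A and eEF2. Rplp0 encodes the anchor of the stalk, uL10, which sits on the 28S rRNA next to the protein of Rpl12. Rplp1 and Rplp2 encode the small acidic proteins P1 and P2, which bind the anchor as dimers and carry the C-terminal tail that meets the factors. Most mRNAs of ribosomal proteins begin with a 5′ terminal run of pyrimidines, the TOP element, which couples their translation to growth signals. In the annotation of GRCm38.p6, Rplp0 lies on chromosome 5 (115559467 to 115563729), Rplp2 on chromosome 7 (141447651 to 141451359) and Rplp1 on chromosome 9 (61913283 to 61914510). Pseudogene copies of each are annotated, and how the counting treated reads shared with them is not given in the sources used here.

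The bases around the annotated start are shown because the members moved apart on polysomes and a TOP element lies at the start. Of the 3 members, 2 had an entry in the RefSeq promoter table of GRCm38.p6, and they stand here beside the gene whose levels most resembled those of each member across the libraries (Rps2 for Rplp0, Rpl38 for Rplp2 and Rps28 for Rplp1). Each window holds 15 bases before and 15 bases from the annotated start, 5′ to 3′ on the strand of the gene. Capitals mark a run of at least 10 pyrimidines (C or T).
Rplp0 (chr5:115559452-115559481, plus strand): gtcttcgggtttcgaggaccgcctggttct
Rplp2 (chr7:141447636-141447665, plus strand): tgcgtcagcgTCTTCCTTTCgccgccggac
Rpl38 (chr11:114668565-114668594, plus strand): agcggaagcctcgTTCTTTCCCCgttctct
Rps2 (chr17:24720048-24720077, plus strand): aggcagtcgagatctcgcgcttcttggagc
Rps28 (chr17:33824548-33824577, minus strand): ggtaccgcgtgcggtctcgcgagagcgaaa
Rplp2 and Rpl38 each had a run of 10 pyrimidines across the annotated start, and the windows of Rplp0, Rps2 and Rps28 held none of that length. Over all 32851 promoters of the table, 5.34% held such a run in the same window on the strand of the gene, and 11.1% on either strand. Over the 64 promoters that matched 56 of the 77 ribosomal protein genes listed here, the share on the strand of the gene was 31.2%. A shorter run, or one at a start other than the annotated one, escapes this rule. A window without a marked run therefore does not show that a TOP element is absent. The letters TATAAA, searched over the 300 bases of each promoter, began at base 18 after the annotated start in Rplp0 and in Rps2 and at base 38 in Rps28, and were not found on this strand in Rplp2 or Rpl38. On the strand of the gene 8.32% of all promoters held them, and 13.6% held them on either strand.

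Depth differed far more between polysome libraries than between cytoplasm libraries. In units of 1e+06 reads (M), the cytoplasm libraries held 22.9 to 70.1 M in Kit+ and 45 to 123 M in Ter119+ cells, and the polysome libraries 1.01 to 37.6 M and 1.02 to 39.8 M. The single gene Lars2 took 0.17 to 54.9% of the reads of a polysome library, most in Rps19flox/+ Kit+ polysome replicate 3. Rpl5 was lower by 0.97 on the log2 scale in VavCre Rpl5flox/+ Kit+ cytoplasm (limma, adjusted p = 0.000287). With VavCre Rps19flox/+, Rps19 differed by -0.48 in Kit+ and -0.21 in Ter119+ cytoplasm, and Rpl5 by -0.59 in Kit+ cytoplasm (not tested). In Ter119+ cytoplasm Rpl5 was higher by 0.44 in the libraries labelled VavCre Rpl5flox/+ (limma, adjusted p = 0.0278). The label by itself would have it lower, so these libraries keep the word labelled in what follows. The 43 other large-subunit genes had a median of 0.93 there and Rps19 was higher by 1.08 (limma, adjusted p = 1.7e-05). Rpl5 thus rose by less than either. On Ter119+ polysomes Rpl5 differed by 2.73 in these libraries (limma, adjusted p = 0.096). It stood there at 546.6, 409.6 and 6334 against 110.2 and 225.9, the highest value coming from the library of 1.02 M reads. Slc4a1, the erythroid anion exchanger, and Kit differed between the sorts as labelled. Median normalized counts in Ter119+ and Kit+ cytoplasm were 362966 and 6112 for Slc4a1, and 156.7 and 1549 for Kit. The sum over 8 Kit+ markers did not separate the sorts in every group. It was 18828 to 34868 in Ter119+ cytoplasm labelled VavCre Rpl5flox/+, above the 16242 to 18397 of Rpl5flox/+ Kit+ cytoplasm. In the other Ter119+ cytoplasm groups it was at most 4874. The sum over 10 erythroid markers did separate these groups, at 4926972 to 8835644 against 192842 to 273286.

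Levels are given as normalized counts, which are reads divided by 1 size factor per library, and changes are differences of the deposited log2 values. Rplp0 had the narrowest range over the 16 groups, its highest group mean being 3.54 times its lowest. The range was 12.2 times for Rplp1 and 25 times for Rplp2. Rplp0 was highest in Ter119+ cytoplasm of the libraries labelled VavCre Rpl5flox/+ (113342 ± 15514, SD, n = 3) and lowest in Rps19flox/+ Kit+ polysome (31984 ± 7450, n = 3). Rplp1 was highest in Rpl5flox/+ Kit+ polysome (290551 ± 25472, n = 3) and lowest in Rpl5flox/+ Ter119+ cytoplasm (23829 ± 1117, n = 3). Rplp2 was highest in the single VavCre Rpl5flox/+ Kit+ polysome library (336380) and lowest in VavCre Rps19flox/+ Kit+ cytoplasm (13467 ± 1429, n = 3). When the groups were ordered by their means, most neighbours overlapped in their libraries, namely 13 of 15 neighbouring pairs for Rplp0, 13 for Rplp1 and 12 for Rplp2. For Rplp1 the order broke below the 4 highest groups, which were the 3 Kit+ polysome groups outside VavCre Rps19flox/+ and Ter119+ polysome of the libraries labelled VavCre Rpl5flox/+. For Rplp2 the same groups stood above the same break. In bulk samples such as these, fewer cells of a type and less RNA per cell cannot be told apart.

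**Figure D1:**
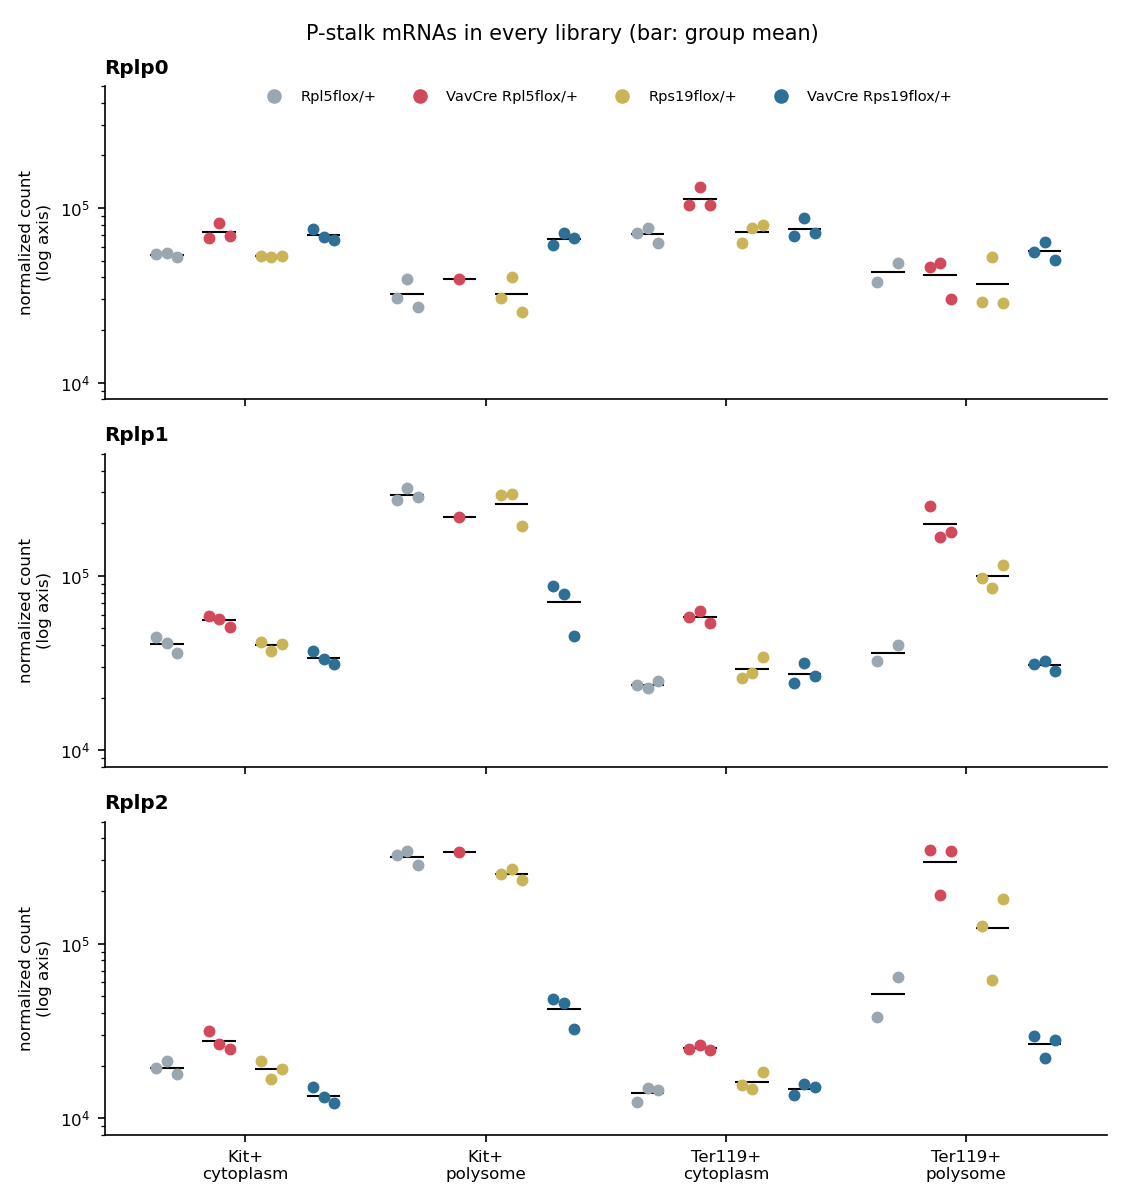
Normalized count (log axis) of Rplp0, Rplp1 and Rplp2 in each of the 45 libraries, grouped by cell type and fraction and coloured by genotype, where each point is a library and each bar a group mean. Rplp1 and Rplp2 stood at 192674 or more in all Kit+ polysome libraries outside VavCre Rps19flox/+, whose 3 libraries lay between 32567 and 87897, while Rplp0 stayed between 25449 and 131255 throughout.

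The first question was how the 3 mRNAs divided between cytoplasm and polysomes in cells without Cre. In Kit+ cells of Rpl5flox/+, Rplp2 stood at 19456, 21178 and 17809 in the cytoplasm and at 321919, 337392 and 283482 on polysomes in replicates 1, 2 and 3. Every polysome library was more than 10 times above its cytoplasm library, and polysome loading, which is the polysome minus the cytoplasm value of the same pool, was 4.01 ± 0.15 (log2, SE, n = 3 pools, limma adjusted p = 6.54e-06). Rplp1 stood at 44365, 41427 and 36050 in the cytoplasm and at 270903, 319330 and 281419 on polysomes, a loading of 2.84 ± 0.21 (limma adjusted p = 0.000124). Rplp0, the anchor, went the other way, from 54293, 55298 and 52135 to 30693, 39137 and 27110. Its loading of -0.75 ± 0.28 missed the threshold (limma adjusted p = 0.0743), and passed it without the polysome library under 2 M reads (-0.66, adjusted p = 0.0477) or with no filter on low counts (adjusted p = 0.0295). The median over all genes tested was -1.07, and 7.01% of genes passed the test as higher on polysomes, so Rplp1 and Rplp2 were in a small share of genes and Rplp0 lay close to the median gene. Among 46 large-subunit genes, Rplp2 ranked 2 and Rplp1 ranked 4 from the top in loading, and Rplp0 ranked 43.

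In Ter119+ cells of Rpl5flox/+ the same order of loading held with smaller values, from 2 pools. Rplp2 stood at 12387 and 14938 in the cytoplasm and at 38122 and 64546 on polysomes in replicates 1 and 2, and cytoplasm replicate 3, with no polysome library here, held 14525. Both pools were higher on polysomes, and the loading of 1.87 ± 0.35 did not pass the test (limma adjusted p = 0.0969). Loadings of 0.63 ± 0.27 for Rplp1 (limma adjusted p = 0.79) and -0.80 ± 0.49 for Rplp0 (limma adjusted p = 1) did not pass either. In this comparison 0.00918% of all genes passed. The Rps19flox/+ pools, which the choice of members had used, had loadings of the same sign in both cell types: -0.75 for Rplp0, 2.67 for Rplp1 and 3.72 for Rplp2 in Kit+ cells, and -1.05, 1.76 and 2.80 in Ter119+ cells.

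**Figure D2:**
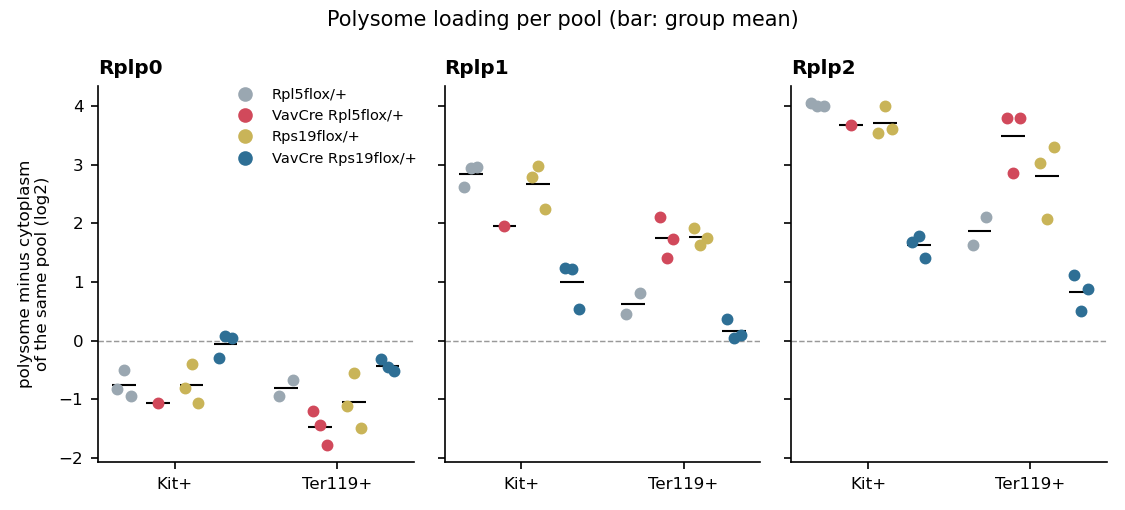
Polysome minus cytoplasm value of the same pool (log2) for the 3 members, by cell type and genotype, where each point is a pool and each bar a group mean. Rplp0 lay at or below 0.08 in every pool, and Rplp1 and Rplp2 lay above 0 in every pool.

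Ter119+ cells were then compared with Kit+ cells in Rpl5flox/+. In the cytoplasm, Rplp0 was higher in Ter119+ cells, at 71991, 77288 and 63275 against 54293, 55298 and 52135, and the groups did not overlap (0.39 ± 0.13 on the log2 scale, limma adjusted p = 0.0115). Rplp1 was lower, at 23827, 22713 and 24946 in Ter119+ against 36050 to 44365 in Kit+ cytoplasm, with a change of -0.76 ± 0.13 (limma adjusted p = 1.17e-05). Rplp2 was lower by 0.48 on the log2 scale, again without overlap (limma adjusted p = 0.0012). Of all genes tested 33.8% passed as higher and 39.9% as lower, so a call in this comparison is common. On polysomes the gap was wider for the acidic proteins. Rplp1 stood at 32494 and 39984 in Ter119+ polysomes, far below the 270903 to 319330 of Kit+ polysomes (-3.01 ± 0.24, limma adjusted p = 1.21e-08), and Rplp2 was lower by 2.66 on the log2 scale (limma adjusted p = 4.2e-06). The median gene was 0.61 higher in this comparison, and 4.49% of genes passed as lower. Rplp0 did not pass on polysomes (0.42 ± 0.26, limma adjusted p = 0.335). The 2 Ter119+ polysome libraries held 15.4 and 39.8 M reads and the 3 Kit+ ones 1.81 to 6.32 M. With log2 of the reads of the polysome library as a covariate the changes were -2.89 for Rplp1 and -2.31 for Rplp2, and both passed. The 2 sorts did not overlap in depth, so depth and cell type cannot be told apart there, with or without the covariate. In Rps19flox/+, the other group without Cre, the polysome differences without the covariate were smaller, at -1.365 for Rplp1 and -1.151 for Rplp2 (not tested).

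The next values are those by which the members were chosen. In Kit+ polysomes of Rps19flox/+, Rplp1 stood at 290986, 293622 and 192674, and with VavCre Rps19flox/+ at 87897, 78212 and 45043. The groups did not overlap, and the difference was -1.91 on the log2 scale. Rplp2 stood at 249529, 267157 and 232191 in the controls and at 48378, 45492 and 32567 with Cre, a difference of -2.58. Rplp0 ran the opposite way, from 30407, 40097 and 25449 to 61454, 71530 and 67465, a difference of 1.09, beside a shift of the median gene of 1.11. In the cytoplasm of the same pools the differences were 0.39 for Rplp0, -0.24 for Rplp1 and -0.50 for Rplp2. Loading differed by 0.69, -1.67 and -2.09.

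In Ter119+ cells of the Rps19 line the cytoplasm differences lay between -0.13 and 0.06, within the spread of the libraries. On polysomes Rplp1 stood at 97521, 85544 and 115354 in Rps19flox/+ and at 31337, 32702 and 28405 with VavCre Rps19flox/+. Rplp2 stood at 125855, 62052 and 181034 against 29422, 22055 and 27965. All VavCre libraries were below all control libraries for both genes, with differences of -1.68 and -2.09, and Rplp0 was higher by 0.69 with overlapping groups. The loading differences were 0.63 for Rplp0, -1.59 for Rplp1 and -1.96 for Rplp2.

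Depth and markers ran with genotype in these libraries. The 8 Kit+ markers summed to 3418 to 5227 in VavCre Rps19flox/+ and 19399 to 25616 in Rps19flox/+ Kit+ polysomes, and the erythroid markers to 160429 to 232274 and 268135 to 591630. On Ter119+ polysomes the erythroid markers summed to 12382507 to 21783199 and 24335921 to 35298894, the 10 macrophage markers to 575.6 to 999.3 and 1401 to 7571, and the Kit+ markers, which overlapped, to 909.2 to 1859 and 1507 to 3764. No marker in these sums was at 0, and their part in the differences was not tested. The VavCre Rps19flox/+ polysome libraries held 10.8 to 37.6 M reads in Kit+ cells and 20.5 to 33.6 M in Ter119+ cells, and their controls 1.01 to 7.17 M and 4.59 to 16.1 M. The groups did not overlap in depth, so depth and genotype cannot be told apart there. The share of reads on Lars2 was 0.383 to 4.51% with Cre and 10.3 to 54.9% in the controls of Kit+ polysomes. With the reads of the library as a covariate, fitted over all 4 genotypes, the Kit+ polysome differences were 0.51 for Rplp0, -1.74 for Rplp1 and -2.56 for Rplp2.

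In the Rpl5 line, all 3 P-stalk mRNAs rose in Kit+ cytoplasm with VavCre Rpl5flox/+. Rplp0 stood at 67451, 81715 and 69306 against 54293, 55298 and 52135 (0.43 ± 0.10 on the log2 scale, limma adjusted p = 0.00332). Rplp1 stood at 58994, 56535 and 51213 against 44365, 41427 and 36050 (0.46 ± 0.10, limma adjusted p = 0.00382). Rplp2 stood at 31343, 26449 and 24853 against 19456, 21178 and 17809 (0.50 ± 0.12, limma adjusted p = 0.00487). Each VavCre library was above each control library for each of the 3 genes, and the share of all genes without overlap was not counted. The median gene moved by 0.03, and 20.8% of all genes passed as higher. Other large-subunit genes mostly went the same way: of 43, 28 passed as higher and 1 as lower, with a median of 0.33. Of 31 small-subunit genes 23 passed as higher and none as lower. The summed normalized counts of the 8 Kit+ markers were 31098 to 49600 in these VavCre libraries and 16242 to 18397 in their controls. Those of the 10 erythroid markers in the table were 71101 to 77951 against 192842 to 273286, and those of the 14 hepatocyte markers 23238 to 42967 against 6055 to 19206. No marker of these lists was at 0, and their part in the result was not tested.

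On Kit+ polysomes the single VavCre Rpl5flox/+ library held 38979 for Rplp0, 218140 for Rplp1 and 336380 for Rplp2. For Rplp0 and Rplp2 it lay within the range of the 3 controls, and for Rplp1 it lay below the lowest control, 270903. Its 8 Kit+ markers summed to 77930 against 26257 to 34923 in the controls. Its erythroid markers summed to 145587 against 330929 to 718983, and its hepatocyte markers to 92352 against 23327 to 36467. Its macrophage markers summed to 2211 against 648.3 to 1094. Of its erythroid markers 1 was at 0, and of its macrophage markers 3. The part of the markers was not tested. None of the 3 changes passed the test, which took the spread of the other groups for this library: 0.29 ± 0.28 for Rplp0, -0.41 ± 0.37 for Rplp1 and 0.10 ± 0.25 for Rplp2 (limma adjusted p = 0.837, 0.834 and 0.952). Of all genes 1.82% passed. The loading of that pool differed from the controls by -0.31 ± 0.57 for Rplp0, -0.89 ± 0.43 for Rplp1 and -0.34 ± 0.31 for Rplp2, and none passed (limma adjusted p = 0.991, 0.758 and 0.959), in a comparison in which 0.0739% of genes did.

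The largest tested changes of Rplp1 and Rplp2 with Cre came from Ter119+ polysomes. On polysomes, Rplp1 stood at 249761, 167027 and 178946 in the libraries labelled VavCre Rpl5flox/+ and at 32494 and 39984 in Rpl5flox/+. Every library so labelled was more than 4 times above both controls, and the change was 2.44 ± 0.22 on the log2 scale (limma adjusted p = 6.14e-05). Rplp2 stood at 344561, 190072 and 339985 against 38122 and 64546, again with no overlap (2.50 ± 0.41, limma adjusted p = 0.00158). Rplp0 stood at 45679, 48387 and 30241 against 37508 and 48636, and its change of -0.07 ± 0.30 did not pass (limma adjusted p = 0.896). The median gene moved by -1.0, and 2.96% of all genes passed as higher. Among the 46 large-subunit genes Rplp2 ranked 2 and Rplp1 ranked 3 from the top, and Rplp0 ranked 42. The 2 groups without Cre differed from each other on Ter119+ polysomes (not tested). Mean Rplp1 was 36239 in Rpl5flox/+ and 99473 in Rps19flox/+, without overlap. Mean Rplp2 was 51334 and 122980, with overlap.

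**Figure D3:**
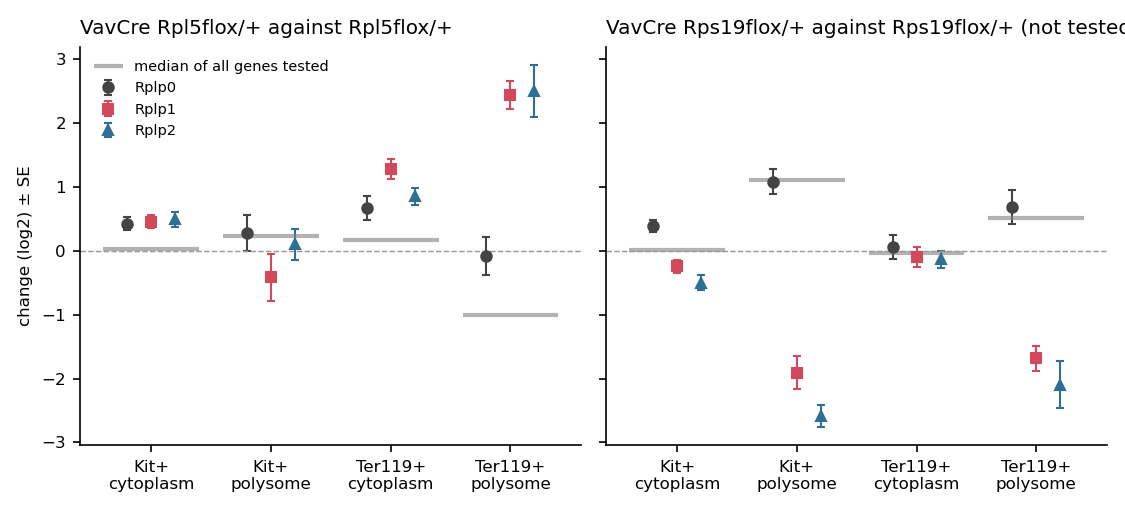
Change with VavCre (log2 ± SE) of each member in the 4 combinations of cell type and fraction, in the Rpl5 line (left, tested) and the Rps19 line (right, not tested), with the median of all genes tested as a grey bar. Rplp1 and Rplp2 were at 2.44 and 2.50 in Ter119+ polysomes of the Rpl5 line and at -1.68 and -2.09 in those of the Rps19 line.

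The cytoplasm of the same Ter119+ cells also held more of all 3 mRNAs. Rplp1 stood at 57928, 62690 and 53988 against 23827, 22713 and 24946 (1.29 ± 0.16, limma adjusted p = 1.08e-05). Rplp2 stood at 24780, 26237 and 24448 against 12387, 14938 and 14525 (0.85 ± 0.14, limma adjusted p = 8.76e-05). Rplp0 stood at 104562, 131255 and 104209 against 71991, 77288 and 63275 (0.67 ± 0.19, limma adjusted p = 0.00658), and missed the threshold when the fit held the Rpl5 line alone (adjusted p = 0.0505). No library labelled VavCre Rpl5flox/+ overlapped a control, and the share of all genes without overlap was not counted. The median gene moved by 0.16 and 35.3% of all genes passed as higher. Of the 43 other large-subunit genes 40 passed as higher and none as lower, with a median of 0.93, and Rplp0 ranked 41 of 46.

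In loading, which sets the polysome against the cytoplasm level, the differences were smaller. The pools labelled VavCre Rpl5flox/+ differed from the controls by 1.12 ± 0.34 for Rplp1 and 1.62 ± 0.45 for Rplp2, with each of 3 pools above both control pools. Neither passed (limma adjusted p = 0.385 for both), and Rplp0, at -0.67 ± 0.63, did not either (limma adjusted p = 0.538). Of all genes 0.0184% passed. Without replicate 2 of the pools labelled VavCre Rpl5flox/+, Rplp2 passed with a difference of 1.93 (limma adjusted p = 0.0352). Mean loading of Rplp1 was 1.75 in the labelled pools, 0.63 in Rpl5flox/+ and 1.76 in Rps19flox/+. For Rplp2 it was 3.48, 1.87 and 2.80. The comparison with Rps19flox/+ was not tested.

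The libraries labelled VavCre Rpl5flox/+ Ter119+ differed from their controls in cell type markers too. The sum over 8 Kit+ markers was 23815 to 57395 against 1889 to 2357 on polysomes, and 18828 to 34868 against 2754 to 4874 in the cytoplasm. The sum over the 10 erythroid markers was 8688476 to 17959077 against 52355390 to 103498597 on polysomes, and 4926972 to 8835644 against 18593276 to 46024628 in the cytoplasm. The 14 hepatocyte markers summed to 43223 to 162166 against 22951 to 30312 on polysomes, and the 10 macrophage markers to 2121 to 4768 against 1946 to 3314. No marker of these lists was at 0 in these groups. Their part in the rise of Rplp1 and Rplp2 was not tested. The labelled polysome libraries held 4.8, 19.1 and 1.02 M reads and the controls 15.4 and 39.8 M, and Lars2 took 1.37 to 35.1% of reads in the former and 0.166 to 4.47% in the latter. With the reads as a covariate, the polysome changes were 2.36 for Rplp1 (limma adjusted p = 0.000112) and 2.02 for Rplp2 (limma adjusted p = 0.0121). Without the library of 1.02 M reads they were 2.50 and 2.37, and both passed.

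The difference between the libraries labelled VavCre Rpl5flox/+ and their controls was then compared between cell types, and its direction in Ter119+ cells rests on those labels. It was larger in Ter119+ than in Kit+ cells for Rplp1 in both fractions and for Rplp2 on polysomes. In the cytoplasm the difference between the changes was 0.83 ± 0.18 for Rplp1 (limma adjusted p = 0.000632), and it did not pass for Rplp0 (0.25 ± 0.19, adjusted p = 0.289) or Rplp2 (0.36 ± 0.17, adjusted p = 0.0909). Of all genes 48.4% passed. On polysomes it was 2.85 ± 0.38 for Rplp1 (limma adjusted p = 0.000843) and 2.40 ± 0.52 for Rplp2 (limma adjusted p = 0.0177), and -0.36 ± 0.41 for Rplp0 (adjusted p = 0.684), with 2.18% of all genes passing. The polysome comparison rested on the 1 VavCre Rpl5flox/+ Kit+ library.

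A ratio of 2 mRNAs within a library does not depend on how libraries are scaled. The ratios of Rplp1 and Rplp2 to Rplp0 differed most between genotypes on polysomes. In Ter119+ polysomes the log2 ratio of Rplp1 to Rplp0 was higher by 2.51 in the libraries labelled VavCre Rpl5flox/+, and that of Rplp2 to Rplp0 by 2.58. All 3 libraries were above both controls for each ratio, and the exact permutation p was 0.1 in both cases, the smallest that 3 against 2 libraries can give (two-sided, 0.267 after Benjamini-Hochberg adjustment over 8 tests). In Ter119+ cytoplasm the ratio of Rplp1 was higher by 0.61 (exact p = 0.1, the smallest possible) and that of Rplp2 by 0.18 (exact p = 0.2). In Kit+ cytoplasm of the Rpl5 line the ratios moved by 0.03 and 0.07 (exact p = 0.9 and 0.8). On Kit+ polysomes the ratios moved by -0.70 and -0.19 (exact p = 0.25 and 0.75, with 0.25 the smallest possible). In the Rps19 line the ratios were lower by 3.00 and 3.67 on Kit+ polysomes and by 2.37 and 2.78 on Ter119+ polysomes, while the cytoplasm of Kit+ cells gave -0.63 and -0.89 and that of Ter119+ cells -0.15 and -0.19.

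**Figure D4:**
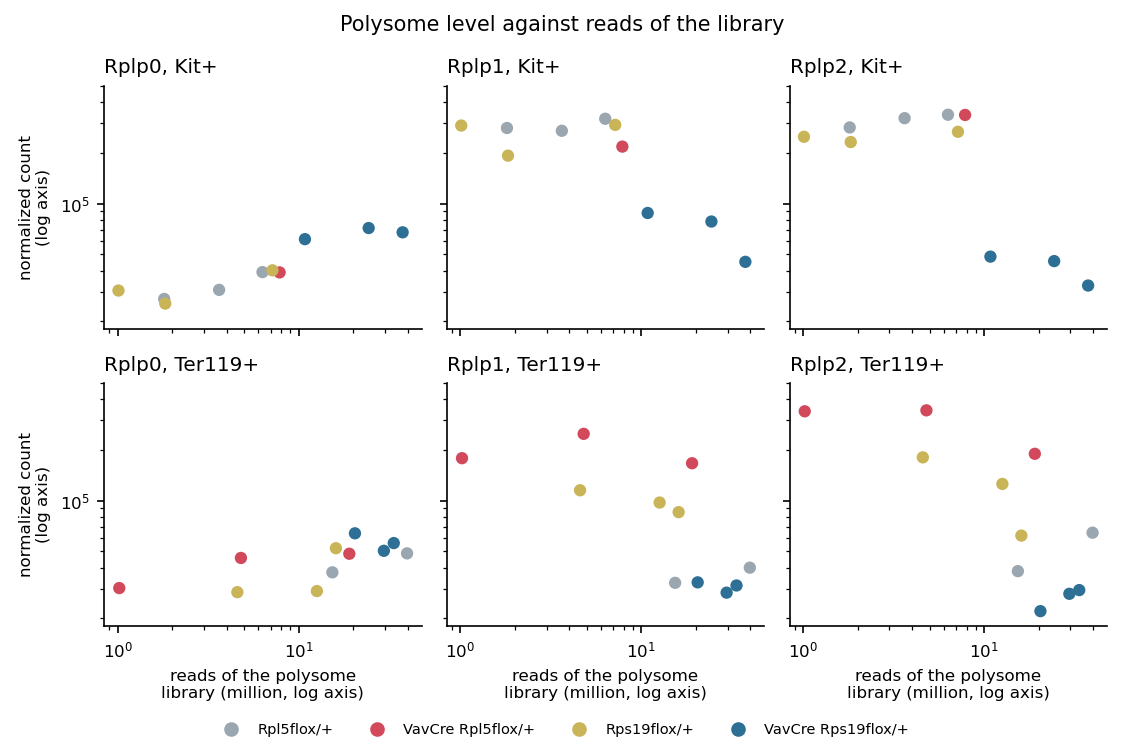
Normalized count of each member (log axis) against the reads of the polysome library (M, log axis) in Kit+ cells (top) and Ter119+ cells (bottom), 1 point per library, coloured by genotype. In Kit+ cells the 3 VavCre Rps19flox/+ libraries had the most reads and the lowest Rplp1 and Rplp2, and the other 7 libraries held 1.01 to 7.85 M reads.

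Depth could be compared between libraries of 1 genotype only over 3 libraries at most, too few for a relation, so none is given.

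**Figure D5:**
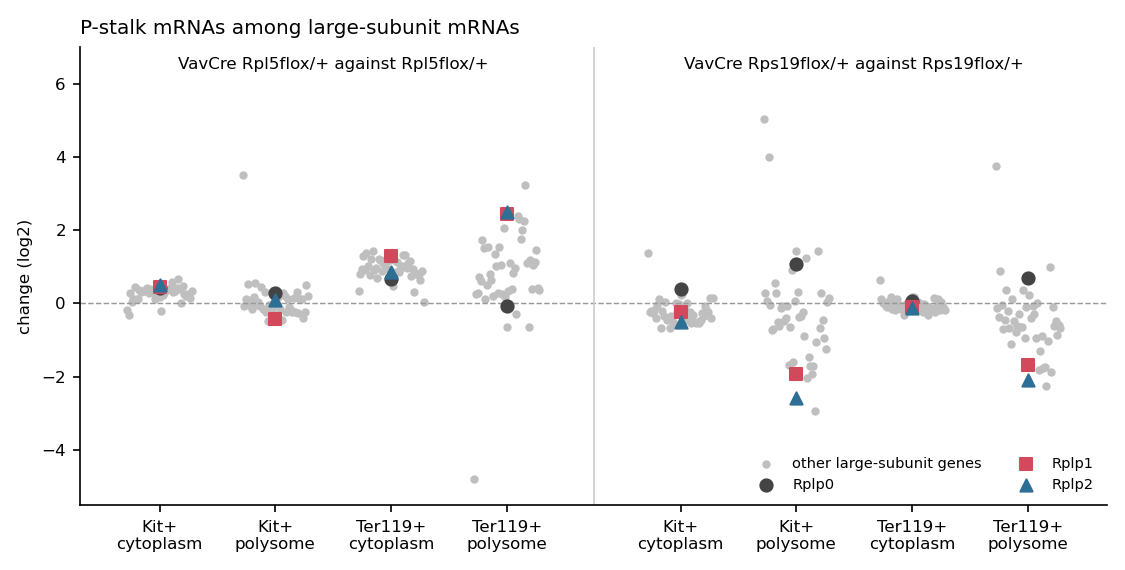
Change with VavCre (log2) of the 3 members (coloured) among the 43 other large-subunit genes (grey) in each line, cell type and fraction. On Ter119+ polysomes of the Rpl5 line Rplp0 ranked 42 of 46 and Rplp1 and Rplp2 ranked 3 and 2, while on Kit+ polysomes of that line Rplp0 ranked 9, Rplp2 20 and Rplp1 44.

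The members were also read against the genes whose products they work with. The 14 partners listed were Rpl12, whose protein binds beside the anchor, Mrto4 and Dusp12, which act when the stalk is assembled, the elongation factors Eef1a1, Eef2, Eef1b2, Eef1d and Eef1g, the release factors Etf1 and Gspt1, Abce1, which splits ribosomes, Eif5b, which joins the subunits, and Eif2ak4 and Gcn1, which sense stalled ribosomes. Rpl12 is counted among the large-subunit genes too. In Kit+ cytoplasm with VavCre Rpl5flox/+, 4 of 14 rose and none fell, beside 20.8% of all genes that rose: Eef1b2 by 0.45, Dusp12 by 0.34, Eef1g by 0.31 and Mrto4 by 0.23 on the log2 scale. In Ter119+ cytoplasm of the libraries labelled VavCre Rpl5flox/+ 9 rose and 1 fell, with a median of 0.84, beside 35.3% of all genes that rose. Dusp12 rose by 1.87, Eef1b2 by 1.65, Mrto4 by 1.35, Eef1g by 1.32 and Rpl12 by 1.30. Eef1d, another subunit of the exchange factor complex, fell by 0.89. On their polysomes Eif5b, Gcn1 and Eef1b2 rose, by 2.26, 2.21 and 1.67, beside 2.96% of all genes. On Kit+ polysomes the single VavCre Rpl5flox/+ library differed by -3.59 for Eif5b, a value with no replicate of its own. In the main fit none passed in either comparison of loading.

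In control cells of the Rpl5 line partners lay on both sides of the fractions. On Kit+ polysomes 3 of 14 passed as higher than in the cytoplasm, beside 7.01% of all genes. They were Eef1d at 3.01, Eif5b at 3.01 and Mrto4 at 0.76. The 4 that passed as lower were Abce1 at -1.89, Etf1 at -1.55, Eef1a1 at -1.45 and Eef2 at -1.08. Of all genes 23% passed as lower in this fit, so the count of partners as lower is near that share. Without the polysome libraries under 2 M reads 8 partners passed as lower, while all genes called in either direction went from 3251 to 5848. Of the 43 other large-subunit genes 27 passed as higher and 2 as lower, with a median of 0.98, and of 31 small-subunit genes 24 passed as higher. In Ter119+ against Kit+ cytoplasm 10 partners passed as lower, beside 39.9% of all genes, led by Dusp12 at -2.14 and Mrto4 at -1.78. Eef1d passed as higher at 1.08, beside 33.8% of all genes. On polysomes 6 passed as lower, beside 4.49% of all genes, among them Eif5b at -2.39 and Mrto4 at -2.20.

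On Ter119+ polysomes of the libraries labelled VavCre Rpl5flox/+, 22 of the 43 other large-subunit genes and 22 of the 31 small-subunit genes passed as higher and none as lower, with medians of 0.84 and 1.19 against -1.0 for all genes. Rplp1 and Rplp2 lay above these medians and Rplp0 below them. In Ter119+ against Kit+ polysomes of Rpl5flox/+, 23 of 43 and 24 of 31 passed as lower, beside 4.49% of all genes. In the Rps19 line, where no test was made, the median of the other large-subunit genes was -0.37 on Kit+ polysomes and -0.48 on Ter119+ polysomes. Rplp2 ranked 45 of 46 in both, Rplp1 42 and 40, and Rplp0 6 and 5.

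The genes whose levels most resembled each member were taken by Pearson r on the log2 values over all 45 libraries, among the 7721 genes whose normalized count averaged 100 or more. These correlations describe libraries that share cell type, fraction and depth. For Rplp2 they were Rpl38 (0.997), Ndufa5 (0.989), Rps9 (0.988), Ndufs5 (0.987) and Rps21 (0.987), so 2 of the 5 encode subunits of respiratory complex I. For Rplp1 they included Rps28 (0.984), Rpl27a (0.981), Rpl36a (0.979) and Rpl35a (0.979), which encode ribosomal proteins. For Rplp0 they were Rps2 (0.909), Eef2 (0.868), Tob1 (0.865), Eif3h (0.86) and Sord (0.852). Rplp1 and Rplp2 correlated at 0.952, and each ranked 34 among the genes most like the other. Rplp0 ran against both, at -0.654 with Rplp1 and -0.77 with Rplp2. Within the 24 cytoplasm libraries Rplp0 correlated with them at 0.31 and 0.277, and within the 21 polysome libraries at -0.594 and -0.726. Rpl38 was first for Rplp2 in each fraction alone as well, at 0.986 in the cytoplasm and 0.995 on polysomes.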

How the data were processed

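The 45 libraries were grouped by their labels, and replicates are pools of cells. The authors deposited log2 values of 13449 genes, made by a variance-stabilising transformation of reads divided by 1 size factor per library. This was read from the values: inverting the transformation gave whole reads for 100% of them (tolerance 1e-06), with size factors equal to a median of ratios. The submitters' processing notes name mm10. The aligner is not given in the sources used here, nor is the counter. Among replicate pairs no copies were found.

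Tests used limma 3.58.1 in R 4.3.3 on the deposited log2 values (lmFit, eBayes with trend, two-sided, Benjamini-Hochberg over all genes tested, threshold 0.05, mean normalized count of at least 10 over the libraries of the fit). The 4 genotypes shared 1 estimate of the spread. Loading was the difference within a pool. The difference between cell types was an interaction over 8 groups of a fraction and was added after the values were seen. Scripts were tested on simulated data. The partners named are those that passed, and the likeness rule took 5 genes, of which 1 for Rplp1 is not reported here. The members and lists were chosen with earlier results of these data known. The labels give each pool its own number. Deviations of same-numbered VavCre Rpl5flox/+ and Rpl5flox/+ cytoplasm libraries correlated at 0.295 to 0.454 in Kit+ and 0.173 to 0.412 in Ter119+ cells. On Ter119+ polysomes the correlations were 0.018 and -0.02. Libraries of unlike number were not compared, so these values do not settle whether replicate numbers pair the libraries. P-values measure the spread between pools. For no comparison was the share of all genes whose groups did not overlap counted. Alternatives were log2(normalized count + 1), other filters on low counts, rescaled libraries, the Rpl5 line alone, the replicate block, each replicate left out, polysome libraries under 2 M reads (M, 1e+06) left out and, added after the data were seen, depth as a covariate.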

Additional observations from a re-analysis of the deposited data

Results flagged for a closer look

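By the labels, the change with Cre ran in opposite directions in the lines, with no overlap between the libraries of a comparison, in 7 cases. None of them was tested because the Rps19 line was used to choose the genes. The share of all genes that meet this rule was not counted, so how common such cases are is not known. The median gene also differed in sign between the Rpl5 and Rps19 lines, at -1.0 and 0.51 on Ter119+ polysomes and -1.21 and 0.55 in Ter119+ loading. On Ter119+ polysomes the change in the Rpl5 line minus that in the Rps19 line was 4.12 for Rplp1 and 4.6 for Rplp2 on the log2 scale, and for Ter119+ loading it was 2.71 for Rplp1, 3.58 for Rplp2 and -1.29 for Rplp0. For Kit+ loading it was -1.01 for Rplp0, from 1 VavCre Rpl5flox/+ pool, and in Kit+ cytoplasm it was 0.99 for Rplp2. Of these, 5 are in Ter119+ cells, where Rpl5 was higher in the libraries labelled VavCre Rpl5flox/+, so their direction rests on labels in doubt. With those labels turned both lines would run the same way in these 5 cases. Erythroid marker sums on Ter119+ polysomes, lower with Cre in both lines as labelled, would then run opposite ways. In Ter119+ cytoplasm the Kit+ markers summed to 2110 to 3114 in Rps19flox/+ and 2754 to 4874 in Rpl5flox/+. They summed to 18828 to 34868 in the libraries so labelled. Beside the rise of Rpl5 by 0.44 in Ter119+ cytoplasm so labelled, the other large-subunit genes had a median of 0.93. In the cytoplasm of both cell types so labelled, Kit+ marker sums were above and erythroid marker sums below those of the controls. Whether the labels were turned was not tested.

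The change in the libraries labelled VavCre Rpl5flox/+ differed between the cell types by the test of the difference (limma) in 3 cases. Ter119+ minus Kit+ was 0.83 for Rplp1 in the cytoplasm (adjusted p = 0.000632), 2.85 for Rplp1 on polysomes (adjusted p = 0.000843) and 2.4 for Rplp2 on polysomes (adjusted p = 0.0177). These directions rest on the Ter119+ labels too.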

How the results depend on the processing

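Of the tested changes of the 3 members, 213 values under the alternatives that keep all replicates kept their direction and their side of the threshold, and 9 did not. With 1 replicate left out, 129 did and 3 did not. The replicate block changed no call of a member: with it the Kit+ cytoplasm changes with VavCre Rpl5flox/+ were 0.43, 0.46 and 0.50, and the Ter119+ cytoplasm changes 0.67, 1.29 and 0.85, for Rplp0, Rplp1 and Rplp2. The uncalled change of Rplp2 on Kit+ polysomes was -0.01 with the block. The uncalled change of Rplp0 on Ter119+ polysomes (-0.07) was 0.04 with libraries rescaled, 0.14 without the library under 2 M reads (M, 1e+06), 0.38 with depth as a covariate (chosen after seeing the data), 0.07 with the block and -0.26 to 0.14 with 1 replicate left out. For Rplp0, Ter119+ against Kit+ polysomes gave -0.10 with depth as a covariate in Rpl5flox/+, and in Rps19flox/+ -0.22 with it, -0.19 without libraries under 2 M reads and -0.13 to 0.34 with 1 replicate left out. The Rplp0 loading in Rpl5flox/+ Kit+ cells passed at -0.66 without the library under 2 M reads and at -0.75 without a filter. The Rplp0 rise in Ter119+ cytoplasm, 0.67, missed the threshold in the Rpl5 line alone. Rplp2 loading in Ter119+ cells with VavCre Rpl5flox/+ was 1.37 to 1.93 with 1 replicate left out.

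In the Rps19 line, without libraries under 2 M reads (which leaves 1 Kit+ control), Kit+ differences with Cre were 0.73 for Rplp0 on polysomes, and 0.33 for Rplp0 and -2.37 for Rplp2 in loading, and control loading was -0.39 for Rplp0 and 4.00 for Rplp2. With depth as a covariate the Rplp0 differences were 0.51 on polysomes and 0.06 in loading. Rescaled, Rplp1 loading in Rps19flox/+ Ter119+ cells was 1.94. In Ter119+ cytoplasm the differences with 1 replicate left out were -0.05 to 0.13 for Rplp0 and -0.20 to 0.03 for Rplp1. The cause of these shifts was not tested.

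Counts of genes called moved by more than 1.5 times where polysomes were compared. For polysome against cytoplasm in Rpl5flox/+ Kit+ cells 3251 genes were called, 991 in the Rpl5 line alone and 5848 without libraries under 2 M reads. In Ter119+ cells 1 was called, from 0 to 40 over the alternatives. For Ter119+ against Kit+ polysomes 1569 were called, 769 without Rpl5flox/+ Ter119+ replicate 1 and 3105 without libraries under 2 M reads. For VavCre Rpl5flox/+ on Kit+ polysomes 192 were called, 23 at a mean of at least 100, 79 with the replicate block and 1916 without libraries under 2 M reads. On Ter119+ polysomes 1406 were called, 423 without Rpl5flox/+ replicate 2 and 2407 without replicate 2 labelled VavCre Rpl5flox/+. For loading 8 were called in Kit+ cells, 0 with the block and 1062 without libraries under 2 M reads, and 2 in Ter119+ cells, up to 762 without replicate 2 labelled VavCre Rpl5flox/+. Of the 21 polysome libraries 4 held under 2 M reads.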
